A study of Mus musculus with 20 samples.

Results

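The HoxC cluster is a run of 9 homeobox genes on mouse chromosome 15, and its members Hoxc13, Hoxc12, Hoxc11, Hoxc10, Hoxc9, Hoxc8, Hoxc6, Hoxc5 and Hoxc4 were followed here through the differentiation of induced pluripotent stem cells (iPSC) into embryoid bodies (EB). The 9 genes, of 55573 in the table, were chosen by their measured levels, since several of them differed strongly between the wild-type line WT#1-4 and the Nox4-/- lines, so every difference in level between those lines is given below as a description with no test. On the GRCm38 assembly with GENCODE M21 gene models the cluster runs from 102921103 to 103036852 on chromosome 15, all members are on the plus strand, and they cover 115.8 kb from Hoxc13 at the 5′ end to Hoxc4 at the 3′ end.

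Hox proteins bind DNA through the homeodomain, together with PBX and MEIS partners, and give cells of the body axis and limbs their position. The genes of a cluster are switched on in order, the 3′ genes earlier and more anteriorly and the 5′ genes later and more posteriorly, a property called collinearity. In pluripotent cells the clusters are held silent by Polycomb complexes, and CDX factors, WNT, FGF and retinoic acid open them as the embryo elongates, whereas fibroblasts keep the Hox pattern of the body site they came from.

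RNA was sequenced from 4 lines on days 0, 3, 5, 7 and 14 of EB differentiation, with 1 library for each line and day and 20 libraries in all. The wild-type lines were WT#1-4 and WT#20D-17 and the lines without Nox4, which encodes an NADPH oxidase that makes hydrogen peroxide, were Nox4-/- #5-8 and Nox4-/- #5-23. The paper describes WT#1-4 and both Nox4-/- lines as made from mouse embryonic fibroblasts with viruses carrying Oct4, Sox2, Klf4 and c-Myc. Cells were kept on fibroblast feeders with LIF, and formed EBs in hanging drops without LIF before plating on gelatin. The paper does not name WT#20D-17, so its origin rests on the labels alone. Each line is 1 clone, so the lines and not the libraries are the independent units, and days of 1 line share its history. A library held 20294935 to 27707994 counts. Levels are CPM, counts scaled to a common library size after TMM scaling, and 3 counts, taken as the detection floor, were worth 0.109 to 0.157 CPM. Nox4 itself had 3 to 22 counts in WT#1-4, 56 to 203 in WT#20D-17 and 0 to 2 in the 10 Nox4-/- libraries.

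The iPSC label was checked against 6 pluripotency markers (Nanog, Zfp42, Esrrb, Dppa5a, Tdgf1 and Dppa4). On day 0 their summed level was 2237 CPM in WT#20D-17 but 1.14 CPM in WT#1-4, 3.11 CPM in Nox4-/- #5-8 and 0.483 CPM in Nox4-/- #5-23. Zfp42, a marker of naive pluripotency, had 0 counts in all 15 libraries of the latter 3 lines, and Nanog had at most 27. The labels call day 0 of every line iPSC, and only WT#20D-17 carried these defining markers there. For the other lines the paper reports alkaline phosphatase activity and staining for markers that include Oct4 and Sox2, and it reads them as pluripotent. Oct4 and Sox2 were not among the 6 markers checked here. In the fit over all lines 2 of the 6 fell by day 14 (Esrrb at a log2 fold change of -3.77 and Dppa4 at -4.53), and Tdgf1 was lower in #5-23 than in #5-8 (-2.62). The 2 falls rest on WT#20D-17, where Esrrb went from 3003 to 91 counts and Dppa4 from 2951 to 64. In the other lines Esrrb had at most 5 and Dppa4 at most 3 counts in a library.

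Because the members are paralogs, their reads could in principle be confused, and the stretch of the homeobox that encodes the DNA-recognition helix (codons 41 to 58) shows how far they have diverged. It is printed for Hoxc8, and for Hoxc6, Hoxc10 and Hoxc13 with capitals at bases that differ from Hoxc8, since these 4 genes followed the most different courses below.
Hoxc8 (chr15:102992691-102992744, plus strand): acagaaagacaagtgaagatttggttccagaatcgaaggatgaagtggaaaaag
Hoxc6 (chr15:103010874-103010927, plus strand): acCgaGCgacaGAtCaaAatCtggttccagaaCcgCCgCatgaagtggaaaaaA
Hoxc10 (chr15:102970968-102971021, plus strand): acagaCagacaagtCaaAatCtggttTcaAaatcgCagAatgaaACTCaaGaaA
Hoxc13 (chr15:102927330-102927383, plus strand): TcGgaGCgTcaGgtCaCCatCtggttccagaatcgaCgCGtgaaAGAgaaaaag
Hoxc6 differs from Hoxc8 at 13 of the 54 bases, Hoxc10 at 14 and Hoxc13 at 16. The bases are those of the GENCODE M21 transcripts. Over the whole 180-base homeobox the 36 pairs of members were 48.3% to 77.8% identical, Hoxc5 with Hoxc6 being the closest pair, and the longest run of identical bases was 20. The only annotated exon overlap among the members was 166 bases shared by Hoxc10 and an upstream isoform of Hoxc5, where reads cannot be assigned to 1 gene by position alone.

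The cluster also holds 2 microRNA genes, whose mature products are shown with the seed (bases 2 to 8) in capitals because HoxC transcripts are known targets of miR-196.
mmu-miR-196a-5p (chr15:102973365-102973386, plus strand): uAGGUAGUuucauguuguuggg
mmu-miR-615-3p (chr15:103014969-103014990, plus strand): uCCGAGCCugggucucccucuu
Sequences are from RefSeq on GRCm38.p6. The genes Mir196a-2 and Mir615 were at 0 counts in all 20 libraries, as were 4 small RNA genes in the span (Gm27337, Gm27443, Gm28011 and Gm27535), which poly(A) libraries are not made to capture. Hotair, the long noncoding RNA antisense to the cluster, had at most 6 counts in a library.

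A promoter, 250 bases before to 50 after an annotated start, was listed in RefSeq for 1 of the 9 members, Hoxc4, which with Hoxc6 had counts in all 20 libraries.
Hoxc4 promoter (GRCm38.p6, chr15:103034145-103034444, plus strand): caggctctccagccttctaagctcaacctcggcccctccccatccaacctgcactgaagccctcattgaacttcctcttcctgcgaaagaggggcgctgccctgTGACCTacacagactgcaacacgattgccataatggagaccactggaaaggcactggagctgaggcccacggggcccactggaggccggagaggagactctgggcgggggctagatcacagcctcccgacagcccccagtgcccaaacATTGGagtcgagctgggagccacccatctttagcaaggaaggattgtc
Capitals mark 2 matches found on either strand, a nuclear receptor site (AGGTCA, at -146, here as its reverse complement) and a CCAAT box at 2 bases after the start. AGGTCA was present in 16.3% and CCAAT in 37.4% of 32851 promoters of this length. The letters TTTATG (a CDX site), TGATTNAT (a PBX-HOX site) and TAATTA (a homeodomain core) had no match in this window and were in 11.9%, 3.2% and 5.3% of all promoters. The window held 9 CpG dinucleotides against a median of 7.

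The 4 lines fell into 3 patterns. Both Nox4-/- lines expressed the cluster at day 0 and on every later day. WT#20D-17 was low at day 0 and gained HoxC transcripts from day 5, and WT#1-4 stayed low throughout. In WT#1-4 Hoxc4 had 21 to 52 counts in a library, and no other member had more than 15. The summed level of the 9 members on days 0, 3, 5, 7 and 14 was 68.9, 69.4, 85.6, 80.2 and 113 CPM in Nox4-/- #5-8 and 123, 104, 126, 101 and 111 CPM in Nox4-/- #5-23. It was 1.56, 2.89, 15.1, 23.6 and 16.0 CPM in WT#20D-17, and 1.94, 3.22, 2.35, 1.06 and 1.24 CPM in WT#1-4. The 2 wild-type lines had like sums on days 0 and 3 and parted from day 5. Averaged over days, the Nox4-/- lines lay 50.05-fold above WT#1-4 (42.6 to 57.5 with either Nox4-/- line alone) and 8.30-fold above WT#20D-17 (7.06 to 9.54). In bulk RNA, more cells that express a gene and more RNA per cell cannot be told apart.

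**Figure D1:**
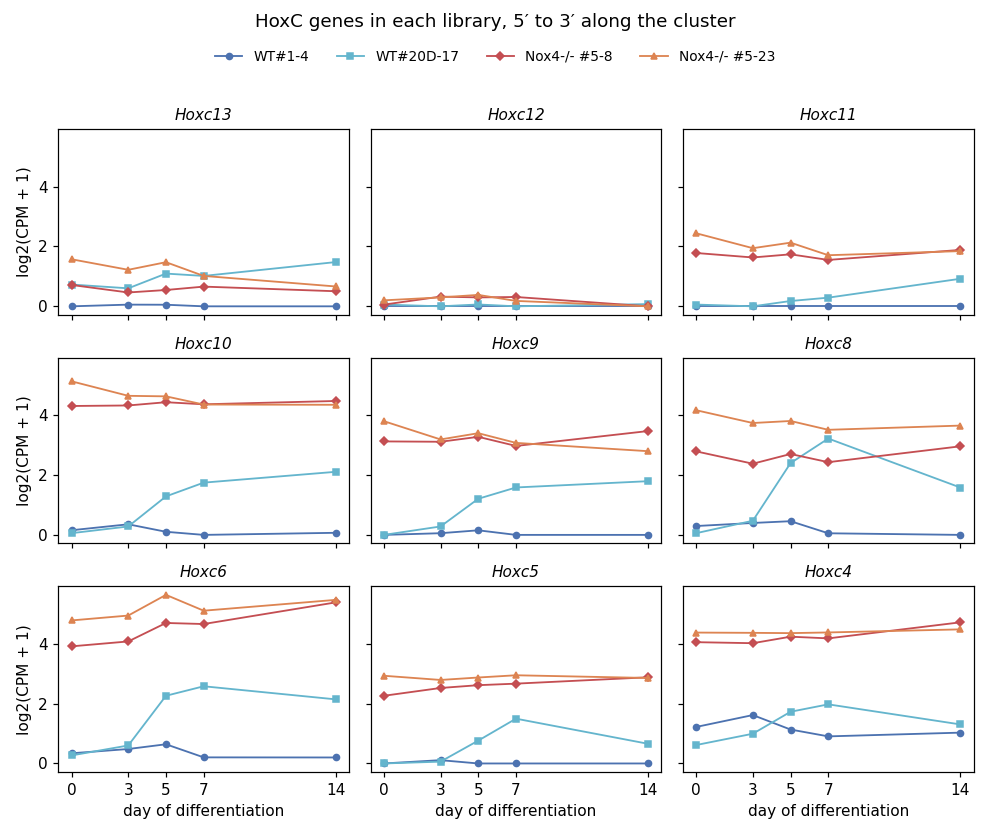
Level of each HoxC gene, as log2(CPM + 1), against the day of differentiation, 1 point per library and 1 line per cell line, with 1 library per point and so no error bar. Hoxc11, Hoxc10, Hoxc9, Hoxc6, Hoxc5 and Hoxc4 of both Nox4-/- lines lie above every wild-type library on all 5 days, and the WT#20D-17 curves of all members but Hoxc12 are higher on day 7 than on day 3.

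All 10 Nox4-/- libraries lay above all 5 WT#1-4 libraries for 8 of the 9 members, Hoxc12 being the exception, and this held for 2.22% of all 19240 genes that passed the expression filter. The contrast is the one that chose the genes, so nothing is read from that count. All 10 lay above all 5 WT#20D-17 libraries for 6 of the 9 members, not for Hoxc13, Hoxc12 and Hoxc8, where 10.9% of all genes did. That comparison uses the same Nox4-/- libraries and is likewise not tested. Without Nox4-/- #5-8 it held for Hoxc8 as well, but the share of all genes was not computed for this smaller set, so nothing is read from that.

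At the 3′ end, Hoxc4, an anterior member of the cluster, was the only one with over 3 counts in all 5 WT#1-4 libraries, at 1.33, 2.07, 1.19, 0.872 and 1.04 CPM on days 0, 3, 5, 7 and 14. The WT#20D-17 levels were 0.533, 0.991, 2.31, 2.93 and 1.47 CPM, and the wild-type lines overlap. In Nox4-/- #5-8 it was 15.6, 15.2, 17.8, 17.1 and 25.2 CPM, and in Nox4-/- #5-23 it held between 19.4 and 21.3 CPM. No wild-type library reached the lowest Nox4-/- library, and the mean over the Nox4-/- lines was 14.7-fold that of WT#1-4 (95% interval 12.5 to 17.2, counting error only) and 11.6-fold that of WT#20D-17 (10.1 to 13.6). Hoxc4 made up 65.7% of all HoxC counts in WT#1-4 (Wilson 95% interval 59.6 to 71.4) but 14.2% in WT#20D-17, 21.8% in Nox4-/- #5-8 and 17.6% in Nox4-/- #5-23.

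Hoxc5 and Hoxc6 are the next genes along the cluster, and Hoxc6 takes part in thoracic patterning. Hoxc6 had the highest mean CPM over days in both Nox4-/- lines, although Hoxc10 was higher on day 0. It was at 14.1, 15.9, 24.9, 24.2 and 40.6 CPM in #5-8 and 26.4, 29.7, 48.6, 33.3 and 43.1 CPM in #5-23. Levels in WT#20D-17 were 0.205, 0.517, 3.79, 4.97 and 3.41 CPM, and in WT#1-4 it was 0.149 to 0.559 CPM. Its mean in the Nox4-/- lines was 98.7-fold that of WT#1-4 (70.8 to 136) and 11.7-fold that of WT#20D-17 (10.7 to 13.7). Hoxc5 was lower, at 3.79 to 6.70 CPM in the 10 Nox4-/- libraries and 0 to 1.82 CPM in WT#20D-17, and had 2 counts in all in WT#1-4. Both genes were highest on day 7 in WT#20D-17, although the counting intervals of Hoxc6 on days 5, 7 and 14 overlapped.

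Hoxc8, which sets vertebral identity in the lower thorax, overlapped between WT#20D-17 and Nox4-/- #5-8. Its WT#20D-17 levels by day were 0.0410, 0.388, 4.27, 8.30 and 1.99 CPM, against 5.91, 4.20, 5.51, 4.38 and 6.77 CPM in Nox4-/- #5-8 and 16.9, 12.3, 12.97, 10.4 and 11.6 CPM in Nox4-/- #5-23. On day 7 the WT#20D-17 library was above every #5-8 library and below every #5-23 library. The ratio to WT#20D-17 on that day was 0.528 for #5-8 (0.406 to 0.682, counting error only) and 1.25 for #5-23 (1.03 to 1.53). In WT#1-4 Hoxc8 had at most 10 counts in a library, and 0 on day 14. It made up 25.9% of the HoxC counts of WT#20D-17, against 6.47% and 11.4% in #5-8 and #5-23.

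Hoxc9, Hoxc10 and Hoxc11 belong to the AbdB-like group, in which Hoxc10 and Hoxc11 take part in patterning the lumbar region and hindlimb. Hoxc10 was 18.8, 19.0, 20.6, 19.6 and 21.2 CPM in Nox4-/- #5-8 and 33.97, 24.0, 23.7, 19.5 and 19.3 CPM in Nox4-/- #5-23. WT#20D-17 had 0.0410, 0.215, 1.44, 2.35 and 3.31 CPM, and in WT#1-4 it had 0 to 7 counts in a library. Every Nox4-/- library was above every wild-type one, with a mean 213-fold that of WT#1-4 (124 to 399) and 14.9-fold that of WT#20D-17 (13.6 to 18.9). Hoxc9 was 5.94 to 12.9 CPM in the Nox4-/- lines and 0, 0.215, 1.31, 2.00 and 2.47 CPM in WT#20D-17, and WT#1-4 had 4 counts over its 5 libraries. Hoxc11 was 1.93 to 4.42 CPM in the Nox4-/- lines. It was at 0 in all 5 WT#1-4 libraries, so that the Nox4-/- mean was at least 22.2-fold higher than the floor of 3 counts per library, and in WT#20D-17 its counts were 1, 0, 3, 5 and 17.

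At the 5′ end the lines were ordered differently. Hoxc13, which acts in hair and nail formation, was 0.656, 0.517, 1.13, 1.02 and 1.78 CPM in WT#20D-17, all within the joint range of the Nox4-/- lines, 0.378 to 0.639 CPM in #5-8 and 0.583 to 1.97 CPM in #5-23. Its mean in the Nox4-/- lines was 0.895 times that of WT#20D-17 (0.747 to 1.19), an interval that holds no difference. WT#1-4 had 2 counts of Hoxc13 in all. Hoxc12, the least expressed member, had 0 to 8 counts in a Nox4-/- library, 3 counts in all in WT#20D-17 and 0 in WT#1-4. Only its level in #5-23 on day 5 (0.303 CPM, 0.153 to 0.597) had an interval above the floor of its library (0.113 CPM).

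Per kilobase of exon, which allows genes to be compared with each other, the mean levels in Nox4-/- #5-23 fell in the order Hoxc6 (15.0 CPM per kb), Hoxc10 (12.6), Hoxc4 (7.77), Hoxc8 (4.53), Hoxc9 (3.61), Hoxc5 (2.06), Hoxc11 (1.53), Hoxc13 (0.543) and Hoxc12 (0.158). In Nox4-/- #5-8 Hoxc10 (10.4 CPM per kb) and Hoxc6 (9.93) led, with Hoxc4 at 7.08, and Hoxc8 (1.89) ranked below Hoxc9 (3.37). Hoxc10 and Hoxc6 overlapped in their range over days in both lines, so their order is not set by these libraries. In WT#20D-17 the highest means were Hoxc6 (1.07) and Hoxc8 (1.06), and in WT#1-4 Hoxc4 (0.506). The level therefore did not fall steadily from one end of the cluster to the other in the Nox4-/- lines: Hoxc10 and Hoxc6 were peaks, and Hoxc5, between Hoxc6 and Hoxc4, was a trough.

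**Figure D2:**
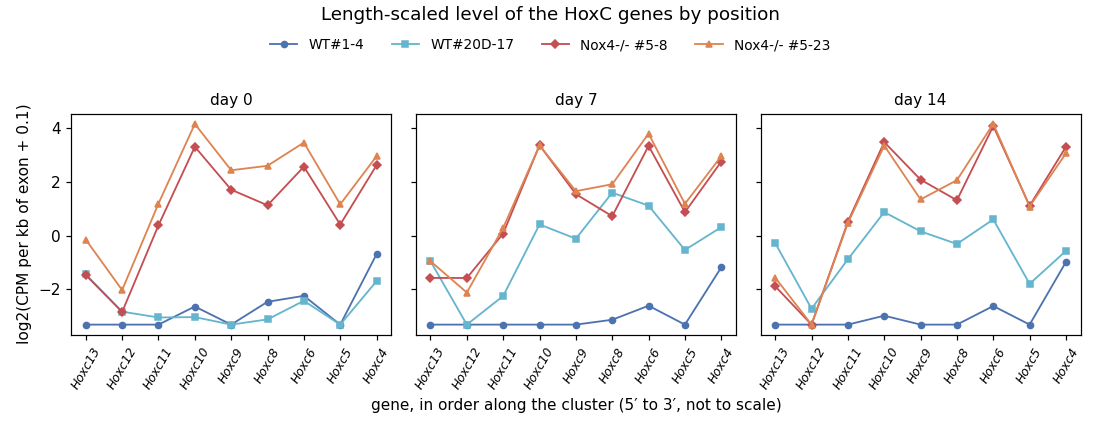
Level per kb of exon, as log2(CPM per kb + 0.1), of the 9 genes in their order along the cluster on days 0, 7 and 14, with 1 point per library. The Nox4-/- lines keep peaks at Hoxc10, Hoxc6 and Hoxc4 on all 3 days. WT#20D-17 moves from low levels on day 0 to a maximum at Hoxc8 on day 7 and at Hoxc10 on day 14.

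In WT#20D-17 most members rose from day 5, with peaks on different days. Hoxc4, Hoxc5, Hoxc6 and Hoxc8 had their highest level on day 7, and Hoxc9, Hoxc10, Hoxc11 and Hoxc13 theirs on day 14, although Hoxc9 had 45 counts on day 7 and 47 on day 14, too close to order. Counting intervals of days 7 and 14 also overlapped for Hoxc10 (1.80 to 3.08 and 2.58 to 4.23 CPM), Hoxc13 and Hoxc6, and those of days 5 and 7 for Hoxc4 and Hoxc6. Only Hoxc5, Hoxc8 and Hoxc11 had a highest day whose interval was clear of the other days. From days 0 and 3 to days 5 and 7 the mean rose 29.3-fold for Hoxc8 (16.0 to 62.9, counting error only), 14.8-fold for Hoxc10 (6.62 to 42.0), 12.1-fold for Hoxc6 (7.47 to 21.5) and 3.44-fold for Hoxc4 (2.37 to 5.18). Hoxc5 rose 58.5-fold (10.3 to 2399) from a single count on the earlier days. Hoxc13, the most 5′ gene, was the highest member by CPM on day 0, with 16 counts, and rose 1.84-fold (1.13 to 3.03). After day 7 Hoxc8 went from 8.30 to 1.99 CPM and Hoxc5 from 1.82 to 0.577 CPM, while Hoxc10 went from 2.35 to 3.31 CPM and Hoxc11 from 0.222 to 0.892 CPM. This is 1 line with 1 library a day, so the order has no replicate check.

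Whether HoxC genes changed over time across lines was tested with edgeR's quasi-likelihood test, with line as a block and the false discovery rate (FDR) threshold of 0.01 over all genes. None of the 8 members that passed the expression filter changed over days, none had an unadjusted p under 0.05 and DESeq2 called none, where 16.4% of all genes were called. Hoxc12 was too low to be tested. Between day 0 and day 14 none of the 8 rose, where 13.6% of all genes did, and none fell, where 13% did. By unadjusted p, 1 of them was under 0.05, against 49.6% of all genes, and DESeq2 called none. The median log2 fold change was 0.64 for the 8 members and 0.04 for all genes. The largest value was that of Hoxc6, with a log2 fold change of 1.31 (SE 0.55, edgeR FDR 0.0672).

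The lines disagreed in these changes. The ratio of day 14 to day 0 for Hoxc10 was 1.13 in Nox4-/- #5-8 (0.991 to 1.29, counting error only) and 0.569 in Nox4-/- #5-23 (0.510 to 0.634). For Hoxc6 it was 2.89 (2.55 to 3.28) and 1.63 (1.49 to 1.79). In each Nox4-/- line the 3 genes at the 3′ end had higher ratios than the 5 tested genes toward the 5′ end: 1.62 for Hoxc4, 1.68 for Hoxc5 and 2.89 for Hoxc6 against 0.653 to 1.31 in #5-8, and 1.08, 0.942 and 1.63 against 0.296 to 0.683 in #5-23. Fitted on the 2 Nox4-/- lines alone, an alternative chosen after the lines were seen to differ, Hoxc6 rose by a log2 fold change of 1.15 (SE 0.226, edgeR FDR 0.0041). It was the 1 member of 8 that rose, against 14.9% of all genes, and none fell, against 11.6%. Hoxc4 was at 0.42 (SE 0.188, FDR 0.103) and Hoxc13 at -1.21 (SE 0.522, FDR 0.0927) in that fit.

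Whether the change from day 0 to day 14 differed between genotypes was tested as an interaction with 2 lines each. It uses the libraries that chose the genes, though their change over days and not their level. The choice favours genes that are low in WT#1-4, which limits the change they can show there. The member counts that follow are therefore not independent of the choice and are given as description. No member passed, where 0.0156% of all genes did, and 5 of 8 had an unadjusted p under 0.05, where 18% of all genes had. DESeq2 called 1 member, Hoxc9, with the smaller change in the Nox4-/- lines, as it did for 1.08% of all genes. The wild-type lines differ from each other here, since Hoxc10 had 3 counts on day 0 and 1 on day 14 in WT#1-4 but 1 and 63 in WT#20D-17. Without WT#1-4, which leaves 1 wild-type line that is assumed to vary like the others, 3 members passed (Hoxc10 with an edgeR FDR of 0.00103, Hoxc8 with 0.00196 and Hoxc9 with 0.00219), each with a larger rise in WT#20D-17 than in the Nox4-/- lines, and 4.35% of all genes passed in that direction.

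The 2 Nox4-/- lines were compared with each other over the 5 days with day in the model, a contrast that did not choose the genes. Hoxc8 was higher in #5-23 than in #5-8 on 5 of 5 days, with a log2 fold change of 1.27 (SE 0.152, edgeR FDR 0.00119). It was the 1 of 8 tested members called higher, where 5.23% of all genes were, and none was lower, where 3.5% were. The days of a line are not independent cultures, so these p-values are too small as a statement about lines. Hoxc6 was also higher on all 5 days, at 0.67 (SE 0.141, FDR 0.0128), and so was Hoxc13, at 1.37 (SE 0.32, FDR 0.0202), but neither passed.

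Each of the 8 tested members had its lowest ratio of #5-23 to #5-8 on day 14, although no trend was tested and the ratios did not fall steadily. All ratios of that day share the same #5-8 library, which also stood apart for some genes outside the cluster. Kmt2a was at 48.2 CPM there against 134 to 148 CPM on the other days of #5-8, and Atp5g2 at 539 CPM against 310 to 342 CPM. Hoxc8 was 2.86-fold higher in #5-23 on day 0 and 1.71-fold on day 14, Hoxc6 went from 1.88-fold to 1.06-fold, and Hoxc10 from 1.81-fold to 0.912-fold. On day 0 all 8 tested members were higher in #5-23, and on day 14 Hoxc11, Hoxc10, Hoxc9, Hoxc5 and Hoxc4 were lower there, Hoxc9 most so at 0.591-fold. Hoxc13 was 3.08-fold higher on day 0 and 3.87-fold on day 5, and Hoxc6 stayed near its day 0 ratio until day 5 (1.95-fold). Without day 14, 3 members passed as higher in #5-23: Hoxc8, Hoxc6 (0.82, FDR 0.00114) and Hoxc13 (1.56, FDR 0.00718), where the share of all genes called higher was 9.44%. The median log2 fold change over the 8 members was 0.38 in the fit with all days, beside -0.01 for all genes tested.

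**Figure D3:**
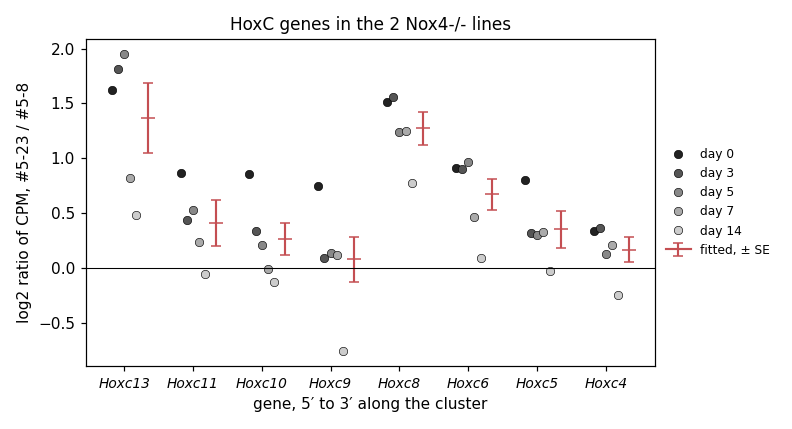
Log2 ratio of CPM in Nox4-/- #5-23 over Nox4-/- #5-8 for 8 HoxC genes, with a point for each day (darker is earlier) and the fitted log2 fold change with its standard error in red. The day 14 point is the lowest for each gene, and Hoxc8 alone passes the threshold.

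The other Hox clusters shared the pattern in part. The summed level of 7 HoxA genes was 15.6 to 34.5 CPM in WT#1-4, which overlaps 22.1 to 31.3 CPM in Nox4-/- #5-8, and 49.1 to 70.3 CPM in #5-23. Of 7 HoxD genes it was 0.626 to 2.24 CPM in #5-8, below the 2.43 to 9.38 CPM of WT#1-4, and 26.4 to 32.4 CPM in #5-23. Between the Nox4-/- lines 4 of 4 tested HoxD genes were higher in #5-23 (Hoxd4, Hoxd8, Hoxd9 and Hoxd13, log2 fold changes 6.76, 4.76, 3.897 and 2.29), and so were 3 of 5 HoxA genes (Hoxa6 at 2.20, Hoxa9 at 1.08 and Hoxa10 at 1.11). The 6 HoxB genes summed to 0.694 to 1.83 CPM in WT#1-4 and 3.69 to 7.70 CPM in the Nox4-/- lines, most of it Hoxb4 there, the paralog of Hoxc4, and to 1.44, 1.59, 10.3, 7.64 and 7.45 CPM by day in WT#20D-17. Thus from day 5 HoxB, like HoxC, was lowest in WT#1-4 and higher than before in WT#20D-17, but there HoxB reached the Nox4-/- range. On days 0 and 3 both sums were a little lower in WT#20D-17 than in WT#1-4. Hoxa9 was at 12.3 CPM or more in all 10 Nox4-/- libraries and at 10.4 CPM or less in all wild-type libraries. Over days, Hoxa13 rose by day 14 (log2 fold change 3.25) and Hoxd13 fell (-2.80), both with an edgeR FDR under 0.01.

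**Figure D4:**
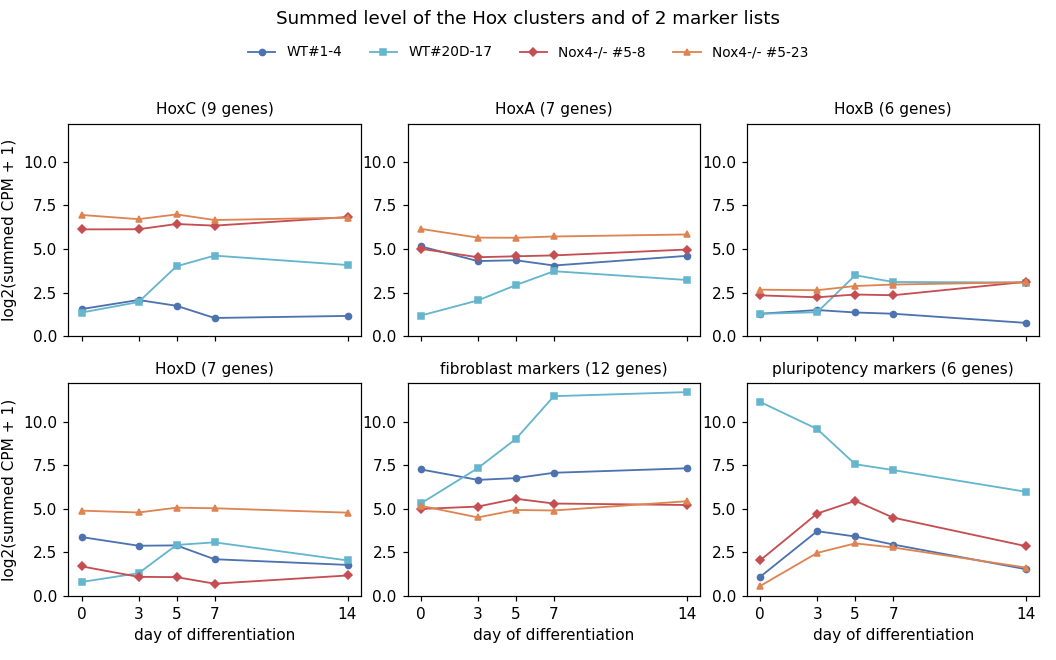
Summed level, as log2(summed CPM + 1), of the 4 Hox clusters and of the fibroblast and pluripotency marker lists against day, with 1 point per library. The HoxC panel separates both Nox4-/- lines from both wild-type lines, the HoxD panel separates #5-23 from #5-8, and WT#20D-17 is highest in the pluripotency panel on every day and in the fibroblast panel on every day after day 0.

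WT#1-4 and the Nox4-/- lines were derived from fibroblasts and kept on fibroblast feeders, and 12 fibroblast markers were set beside the members. Their summed level was 99.9 to 159 CPM in WT#1-4, 30.7 to 46.6 CPM in Nox4-/- #5-8 and 21.7 to 42.2 CPM in Nox4-/- #5-23. On day 0 in the Nox4-/- lines the sum was 30.7 and 35.0 CPM. In WT#20D-17 the sum went from 38.5 CPM on day 0 to 3313 CPM on day 14, the span in which HoxC transcripts appeared there. The part of fibroblasts in the HoxC levels was not tested. The collagen genes Col1a1 and Col3a1 had at most 209 counts in a Nox4-/- library and up to 18117 and 22162 in WT#20D-17. Other markers were ordered differently: Twist1 had 230 to 725 counts in the Nox4-/- lines, 395 to 815 in WT#1-4 and 62 to 327 in WT#20D-17, and Dcn had 84 to 406 counts in #5-8, 5 to 118 in #5-23 and 88 to 122 in WT#1-4. Of the 12 markers only Pdgfra rose by day 14 (log2 fold change 2.88), and none of the 10 that could be tested between the Nox4-/- lines passed there, Thy1 being nearest at -2.28 (edgeR FDR 0.0101).

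Markers of tissues that use HoxC genes also differed among lines. Limb and lateral plate genes summed to 87.9 to 731 CPM in WT#20D-17, most of it Gata4, against 9.21 to 44.6 CPM in the Nox4-/- lines. Tbx4 alone had its lowest mean in WT#20D-17, and the other genes of the list had their highest mean there. The Tbx4 means were 2.23 CPM in WT#20D-17, 16.3 CPM in WT#1-4, 28.2 CPM in #5-8 and 9.08 CPM in #5-23. Between the Nox4-/- lines Tbx4 (log2 fold change -1.66) and Pitx1 (-2.06), both hindlimb regulators, were lower in #5-23. No gene of this list changed by day 14 over all lines, although Pitx1 passed the interaction (edgeR FDR 0.00639), with the larger rise in the wild-type fit. Among spinal cord and motor neuron genes Mnx1, Isl1, Lhx3 and Chat had means under 1 CPM in both Nox4-/- lines. Kidney and intermediate mesoderm genes summed to at most 1.71 CPM in the Nox4-/- lines and none of 4 tested changed by day 14.

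Regulators that act upstream of Hox clusters were examined as lists. Of 11 tested caudal and axial genes, 2 rose by day 14, Cdx2 (log2 fold change 7.16) and Tbx6 (2.30), and none fell, and Aldh1a2, which makes retinoic acid, was lower in #5-23 than in #5-8 (-3.23). Cdx2 counts in WT#20D-17 were 3, 133, 418, 353 and 108 on the 5 days, beside HoxC counts of 38, 67, 347, 532 and 304. In the Nox4-/- lines Cdx2 had 0 counts on day 0 and at most 19 later, and the HoxC sum on day 0 was 68.9 and 123 CPM. The part of these genes in the HoxC levels was not tested. Cyp26a1, which degrades retinoic acid, had 809 to 5680 counts in WT#20D-17 and at most 69 in the other lines.

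Polycomb genes keep Hox clusters silent. Of 18 tested, 3 rose by day 14, among them Ezh1 (2.24) and Cbx8 (1.42), and 6 fell (Ezh2 at -1.71, Cbx2 at -1.13, Mtf2 at -1.05, Rbbp4 at -0.95, Eed at -0.86 and Suz12 at -0.62), and none of the 17 that could be tested between the Nox4-/- lines passed there. The list median was -0.38 beside 0.04 for all genes. Cbx7, a reader of the Polycomb mark H3K27me3, stood out by line: it had 683 to 2553 counts in WT#1-4 and 1572 to 6634 in WT#20D-17, but 2 to 14 in the 10 Nox4-/- libraries. Its part in the HoxC levels was not tested. The other core subunits were present in all lines, with Ezh2 at means of 62.8 and 110 CPM in WT#1-4 and WT#20D-17 and 83.9 and 66.0 CPM in #5-8 and #5-23. Of 10 MLL subunits and H3K27 demethylases, which oppose Polycomb, 3 fell by day 14 (Ash2l at -1.30, Psip1 at -1.35 and Wdr5 at -1.05) and none rose.

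Hox partners were present in every line. The 9 PBX, MEIS and PKNOX genes summed to 251 to 335 CPM in the Nox4-/- lines, 302 to 389 CPM in WT#1-4 and 224 to 369 CPM in WT#20D-17. By day 14 Meis1 rose (2.06), and Pbx3 (-0.60) and Meis2 (-0.77) were lower in #5-23 than in #5-8.

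The genes around the cluster were compared to see where the difference between lines ended. Calcoco1, the nearest expressed protein-coding gene on the 5′ side, had means of 98.5 and 83.4 CPM in WT#1-4 and WT#20D-17 and 85.3 and 88.2 CPM in #5-8 and #5-23. Smug1, a DNA repair glycosylase gene next to Hoxc4, had means of 24.1 and 23.1 CPM against 43.3 and 42.1 CPM, a smaller ratio than that of any tested HoxC gene but Hoxc13 against WT#20D-17. Its lowest Nox4-/- library was at 39.7 CPM and its highest wild-type library at 27.9 CPM. A difference between genotypes without overlap was therefore also seen beyond Hoxc4 on the 3′ side, and its cause was not tested. None of 9 tested flanking genes differed between the Nox4-/- lines. By day 14 Calcoco1 rose (1.46) and Hnrnpa1 fell (-1.15), and the other 8, Tarbp2, Npff, Atf7, Atp5g2, Smug1, Cbx5, Nfe2 and Copz1, did not pass.

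The 10 genes outside the cluster whose log2(CPM + 1) was most like the mean of the members over the 20 libraries, of 14572 compared, were Pcdhgb6 (Pearson r 0.967), Ces2g (0.922), Gm43430 (0.922), Smug1 (0.917), Myrip (0.914), Gm36161 (0.910), Gm21188 (0.905), Ptgfrn (0.902), Tmem33 (0.902) and Ces2e (0.900). Libraries of a line lie together, so these values mostly reflect the split of lines and are descriptions. Ces2g and Ces2e are neighbouring carboxylesterase genes, with means of 18.9 and 2.97 CPM in #5-8 and 20.7 and 8.59 CPM in #5-23 against at most 1.32 CPM in a wild-type line. Myrip had means of 9.13 and 11.1 CPM in #5-8 and #5-23 and 0.053 and 0.237 CPM in WT#1-4 and WT#20D-17.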

How the data were processed

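Poly(A) RNA libraries (Illumina TruSeq stranded) were sequenced by the authors, aligned with STAR 2.6.0c and quantified with RSEM 1.3.1 per the labels, on mm10 (GRCm38). The deposited values are RSEM expected counts per Ensembl gene, not normalized, and whether RSEM used strand is not given in the sources used here. They were rounded to whole numbers. Gene names came from GENCODE M21, which matched 55480 of 55573 IDs. No column of the authors' own comparisons was used.

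Groups and days came from the titles. One protocol text lists day 10 where titles list day 14, and day 14 was used. The line WT#20D-17 is known from the labels alone. CPM used TMM library sizes (edgeR 4.0.16, R 4.3.3). Tests were edgeR quasi-likelihood tests with edgeR's expression filter, Benjamini-Hochberg FDR over all genes tested and a threshold of 0.01. The block was the cell line, which the labels name in every title. Intervals are 95% and cover counting error only. The p-values of the day and interaction tests measure how lines differ in their course over days, not their spread in level. Between the Nox4-/- lines they measure how the difference varies over days. The tests treat libraries of a line as independent, although these share its history. Alternatives were RLE and upper quartile scaling, no filter, DESeq2 1.42.0, no block, each line or day left out, no day term, edgeR's exact test with days pooled, the Nox4-/- lines alone (chosen after seeing the data), and a threshold of 0.05. Scripts were tested on simulated data. The members and all lists were chosen with earlier results of these data known. Genes named are the 9 members, every gene in the span, 5 expressed flanking genes a side, the 10 genes of most similar pattern with a mean of at least 1 CPM, and from each list those past the threshold plus up to 4 of the highest mean CPM. The values of some listed genes are not reported here.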

Additional observations from a re-analysis of the deposited data

How the results depend on the processing

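The change over days called 0 members under every alternative run, and the change from day 0 to day 14 called 0 except in the Nox4-/- lines alone (1). For the interaction, DESeq2 called 1 member and leaving out a line gave 0 to 3. Between the Nox4-/- lines, no filter and DESeq2 each called 2, a threshold of 0.05 called 3, and leaving out a day gave 1 to 3, beside 2203, 2419, 2707 and 476 to 2259 of all genes (1313 with all days). Without the replicate block (line) the day 14 values of Hoxc11, Hoxc10 and Hoxc9 turned to -0.19, -0.30 and -0.20, and the number of all genes called over days went from 3163 to 624 (5095 with DESeq2). In the Nox4-/- lines alone they were -0.32, -0.33 and -0.35. The cause of these turns was not tested.

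The day 14 value of Hoxc8 was 0.046 with RLE or upper quartile scaling and 0.010 with no filter. In the interaction, Hoxc4 was 0.054 with upper quartile scaling and 0.038 with no filter. Leaving out a line in turn, day 14 values ran from -1.18 to 0.46 for Hoxc13, -0.35 to 1.85 for Hoxc11, -0.40 to 1.403 for Hoxc10, -0.36 to 1.83 for Hoxc9 and -0.38 to 0.33 for Hoxc8. Interaction values ran from -6.49 to 0.71 for Hoxc10, -5.60 to 5.32 for Hoxc8, -2.88 to 1.88 for Hoxc6, -6.46 to 0.28 for Hoxc5 and -1.03 to 0.69 for Hoxc4, and those of genes near 0 counts in a line are no measure of size. Leaving out a day, Hoxc9 between the Nox4-/- lines ran from -0.091 to 0.28. With 1 library for each line and day all of these rest on 4 lines, and most Hoxc12 and WT#1-4 levels lie near the floor of 3 counts.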
